A study of Mus musculus with 6 samples.

Results

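Expression of 10 genes that restrain or carry out ERK signaling was examined by RNA-seq in mouse NMPs treated with RA for 2 h. The genes were *Spry1*, *Spry2*, *Spry4*, *Spred1*, *Il17rd*, *Dusp4*, *Dusp6*, *Etv4*, *Etv5* and *Erf*. They were taken by name, as the 10 genes (14 RefSeq transcripts) so labelled among the 20631 genes (30352 transcripts) in the files, and the values of all transcripts of a gene were summed. NMPs (neuromesodermal progenitors) are caudal cells that can form spinal cord or presomitic mesoderm. They were derived from mouse ESCs over 3 days with bFGF, to which the WNT agonist CHIR99021 was added for the last day. In all samples bFGF and CHIR99021 were then removed, and the cells were kept for 2 h in retinoid-free N2B27 medium with the DMSO vehicle, with 25 nM RA or with 1 µM RA. RA (retinoic acid) is a ligand of nuclear receptors that regulate transcription. Each condition had 2 samples, grown in different dishes and named technical replicates in the methods. P-values therefore measure only how dishes of 1 experiment varied. The labels give the strain as 129 R1, whereas the methods describe C57BL/6 ESCs maintained on feeders.

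FGF ligands bind receptor tyrosine kinases and act through RAS, RAF and MEK on the kinase ERK. Active ERK phosphorylates transcription factors of the ETS family and removes repressors from target genes, and many of the first targets are inhibitors of the same pathway. For this reason transcripts of the Sprouty, DUSP and PEA3 families are widely used as a readout of FGF-ERK output. In the caudal embryo FGF keeps progenitors undifferentiated and RA opposes it. The question addressed here was how these genes behaved within 2 h of RA treatment.

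The depth was 31753556 to 42029348 estimated counts per sample. *T* (367 to 380 RPKM) and *Sox2*, which are co-expressed in NMPs, were both present. *Sox2* lay at 5.20 to 5.21 RPKM in the DMSO samples and at 15.2 to 17.3 RPKM in the RA-treated ones. Its log2 fold changes were 1.56 (low dose) and 1.64 (high dose), and those of the NMP marker *Nkx1-2* were 1.02 and 0.98. Calls, defined below, were made for 8.05% of all genes tested at 25 nM and for 19.7% at 1 µM. Of 6 NMP markers, 4 were called higher and 1 lower at 25 nM, and 3 higher and 1 lower at 1 µM. The quasi-likelihood test of edgeR called 3 higher at 25 nM. None of 5 pluripotent cell markers was called at either dose, which with so few genes and these shares says little about them. Among these *Pou5f1* was at 432 to 470 RPKM, whereas *Klf4* and *Esrrb* were under 1 RPKM in all samples. RPKM scales the reads of a transcript for its length and for sequencing depth. The 4 markers of committed neural cells summed to 0.298 to 0.378 RPKM. *Cyp26a1*, which encodes an enzyme that degrades RA, was at 52.6 and 52.3 RPKM with DMSO, at 178 RPKM in both samples with 25 nM RA, and at 283 and 272 RPKM with 1 µM RA. *Rarb*, which encodes an RA receptor, had log2 fold changes of 4.53 and 4.89 at the low and the high dose. Markers of other cell types moved with RA treatment too. The 4 mesoderm markers summed to 84.0 and 85.5 RPKM with DMSO, to 61.8 and 56.9 RPKM with 25 nM RA and to 51.7 and 56.5 RPKM with 1 µM RA, with *Tbx6*, *Msgn1* and *Mesp1* lower and *Meox1*, under 1 RPKM in all samples, higher. The 4 endoderm markers summed to 36.0 to 36.9 RPKM with DMSO and to 26.9 to 29.3 RPKM with RA, with 3 of the 4 lower at each dose. The 5 fibroblast markers, for feeder cells, summed to 5.11 to 6.11 RPKM, with none called at 25 nM and 3 lower at 1 µM (2 in the quasi-likelihood test). The part of these shifts in the results below was not tested. In bulk samples fewer cells of a type and less RNA per cell cannot be told apart.

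Among the 10 genes the largest change was that of *Erf*. ERF is an ETS-domain repressor that ERK phosphorylates and drives out of the nucleus. The gene lies on the minus strand at chr7:25242560-25250759 (mm10). The sequence before the start of its transcript is shown because *Erf* changed most, beside that before the start of *Spry1*, the gene with the largest fall. Both are the 250 bases upstream of the start from RefSeq (GRCm38.p6), written 5′ to 3′ on the strand of the gene, with CG dinucleotides in capitals. The *Erf* stretch is chr7:25250759-25251008 on the minus strand and the *Spry1* stretch is chr3:37639697-37639946 on the plus strand. The RefSeq span of the *Erf* gene reaches past the start used here and past the whole *Erf* stretch, which therefore lies within it. An *Erf* start farther upstream was not searched.
Erf: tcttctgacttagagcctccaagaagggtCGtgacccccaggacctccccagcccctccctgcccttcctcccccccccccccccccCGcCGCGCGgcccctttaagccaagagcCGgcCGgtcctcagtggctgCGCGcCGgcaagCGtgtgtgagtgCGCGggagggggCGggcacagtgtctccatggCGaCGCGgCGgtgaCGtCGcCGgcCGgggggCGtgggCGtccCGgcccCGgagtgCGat
Spry1: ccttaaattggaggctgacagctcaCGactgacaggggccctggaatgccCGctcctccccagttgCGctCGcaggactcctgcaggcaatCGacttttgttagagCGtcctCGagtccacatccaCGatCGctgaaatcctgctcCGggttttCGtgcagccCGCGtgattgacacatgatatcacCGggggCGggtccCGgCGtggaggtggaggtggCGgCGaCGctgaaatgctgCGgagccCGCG

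The *Erf* stretch holds 27 CG dinucleotides and the *Spry1* stretch 23, and 91.4% and 86.7% of the 32851 promoter stretches in the RefSeq table held fewer. RefSeq stretches matched 7 of the 10 genes (*Spry1*, *Spry2*, *Spred1*, *Il17rd*, *Dusp6*, *Etv5* with 2 starts, and *Erf*). These 8 stretches held a median of 23 CG dinucleotides (range 10 to 31), against a median of 6 over all stretches. Windows from 250 bases before to 50 bases after each start were also searched on both strands for short motifs. TGAATGAA and TGAATGGA, 2 forms of the site of the repressor Capicua, were in none of the 8 windows and in 1.30% and 1.21% of all windows. Other forms of that site were not searched for, so these windows may still hold Capicua sites. CCGGAAGT, a site of ETS factors, was in none of the 8 and in 3.89% of all windows. The RA receptor half-site AGGTCA was in 16.3% of all windows and in 1 of the 8, that of *Spry2*, where it begins at base 22 counting the start as 1. Direct repeats of that half-site with a spacer of 2 or 5 bases (DR2 and DR5, each of which contains the half-site) were in none of the 8 and in 0.00913% of all windows each. Near *Erf* the paper identified a DR2 or DR5 element from published RA receptor ChIP-seq, which was not conserved in human. Elements outside the windows, and other forms of the ETS site or of the half-site, were not searched for here. Exact repeats this rare would seldom be met in 8 windows, so their absence says nothing about these genes. The windows may still hold RA response elements or ETS sites of other forms. The *Spry2* half-site is shown in capitals in the 30 bases around it (chr14:105896781-105896810, minus strand, GRCm38.p6).
Spry2: cttctggaagggAGGTCAtctatcccggaa

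Of the 10 genes, 5 were called at 25 nM RA (3 higher and 2 lower) and 7 at 1 µM RA (4 higher and 3 lower). A gene was called when its p from the likelihood ratio test of edgeR, adjusted by Benjamini-Hochberg over the 15143 genes tested (all 10 among them), was under 0.1. Over all genes tested, 8.05% were called at 25 nM (4.5% higher and 3.55% lower) and 19.7% at 1 µM (8.54% higher and 11.2% lower). With total counts in place of TMM scaling the calls at 1 µM split into 976 higher and 1955 lower, against 1293 and 1690. The median absolute log2 fold change of the 10 genes was 0.17 at 25 nM and 0.24 at 1 µM, against 0.07 and 0.11 over all genes tested. The 10 genes were chosen with earlier results of these data known. Their RPKM with DMSO was above that of 62.2% (*Spry1*) to 96.3% (*Dusp6*) of all genes in the files. The shares and medians over all genes are therefore not those of like genes, and no enrichment was tested. With 2 samples per condition the RPKM values of 2 conditions often do not overlap. This was so for 44.4% of all genes tested at 25 nM, for 54.4% at 1 µM and for 43.6% between the doses, so that a lack of overlap in a gene below is a description only. Apart from *Erf* the called changes of the 10 genes were small, between a fall of 23.8% and a rise of 24.7%. At 1 µM genes with the same role went in opposite directions, and the median log2 fold change of the 10 was -0.00 at 25 nM and -0.04 at 1 µM. The DMSO samples are shared by the 2 comparisons, which are therefore not independent.

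**Figure D1:**
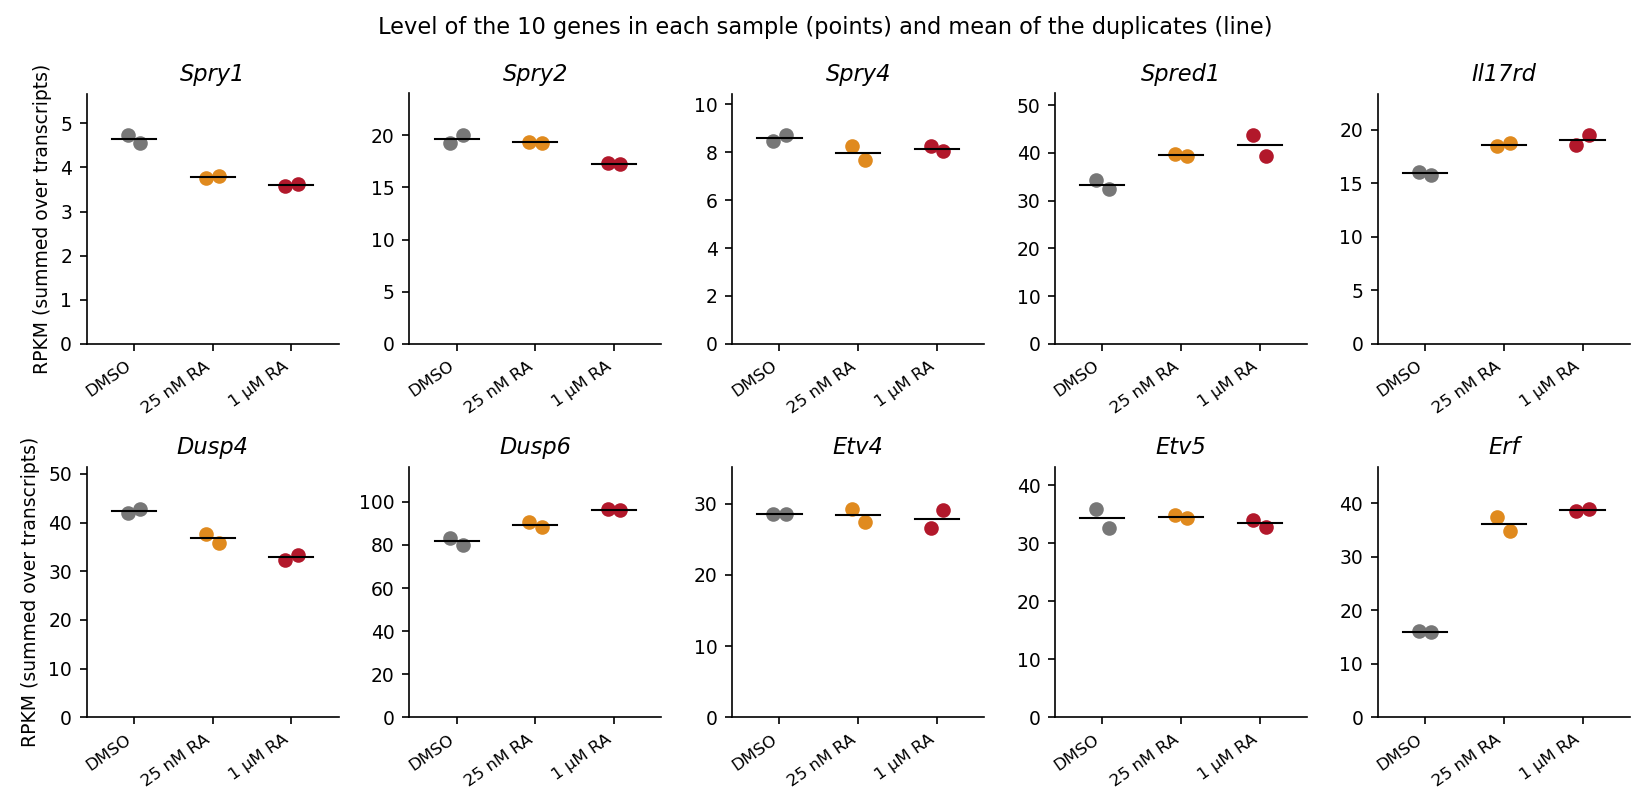
RPKM summed over the transcripts of each gene (vertical axis, from 0) in the DMSO, 25 nM RA and 1 µM RA samples. Points are the 2 samples of a condition and lines are their means. *Erf* rose from about 16 RPKM to between 34.8 and 39.0 RPKM, while the RA-treated samples of *Etv4* and *Etv5* overlapped those with DMSO.

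*Erf* was at 16.2 and 15.9 RPKM with DMSO, at 37.5 and 34.8 RPKM with 25 nM RA, and at 38.6 and 39.0 RPKM with 1 µM RA. All RA-treated samples lay above both DMSO samples, and the samples with 1 µM RA lay above those with 25 nM RA. The change was 1.17 on the log2 scale (SE 0.05, adjusted p = 8.87e-106) at 25 nM and 1.27 (SE 0.05, adjusted p = 1.42e-125) at 1 µM, a rise of 2.24 and 2.41 times. *Erf* was 157th of the 15143 genes by absolute log2 fold change at 25 nM and 164th at 1 µM. The difference between the doses was a log2 fold change of 0.10 (95% interval 0.00 to 0.20) with an adjusted p of 0.37 in edgeR's test. *Erf* was called under all 19 alternatives at both doses. In the paper's qRT-PCR of NMPs with 25 nM RA, *Erf* moved in the same direction but the change was not significant. The paper also found its expression unchanged in mouse embryos deficient in RA synthesis.

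*Etv4* and *Etv5* encode ETS activators of the PEA3 family, which are induced by FGF and activate its target genes. *Etv4* (chr11:101769742-101785311, minus strand, mm10) was at 28.5 RPKM in both DMSO samples, at 29.3 and 27.4 RPKM with 25 nM RA and at 26.6 and 29.1 RPKM with 1 µM RA. *Etv5* (chr16:22381313-22439571, minus strand, mm10) was at 36.0 and 32.7 RPKM with DMSO, at 34.9 and 34.3 RPKM with 25 nM RA and at 34.1 and 32.8 RPKM with 1 µM RA. The samples of each RA dose overlapped those with DMSO for both genes, and between the doses both *Etv5* samples with 1 µM RA lay below those with 25 nM RA. The log2 fold change of *Etv4* was -0.01 (95% interval -0.12 to 0.09) at 25 nM and -0.04 (-0.15 to 0.07) at 1 µM. That of *Etv5* was 0.01 (-0.10 to 0.11) and -0.05 (-0.15 to 0.06). The outermost bounds of these intervals were 0.900 and 1.08 times the DMSO level. The mean RPKM of *Erf* was below those of *Etv4* and *Etv5* with DMSO and above both of them at each RA dose. The ratio of *Erf* to the sum of *Etv4* and *Etv5*, a quantity chosen after the values were seen, was 0.251 and 0.259 with DMSO, 0.584 and 0.563 with 25 nM RA and then 0.637 and 0.630 with 1 µM RA.

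**Figure D2:**
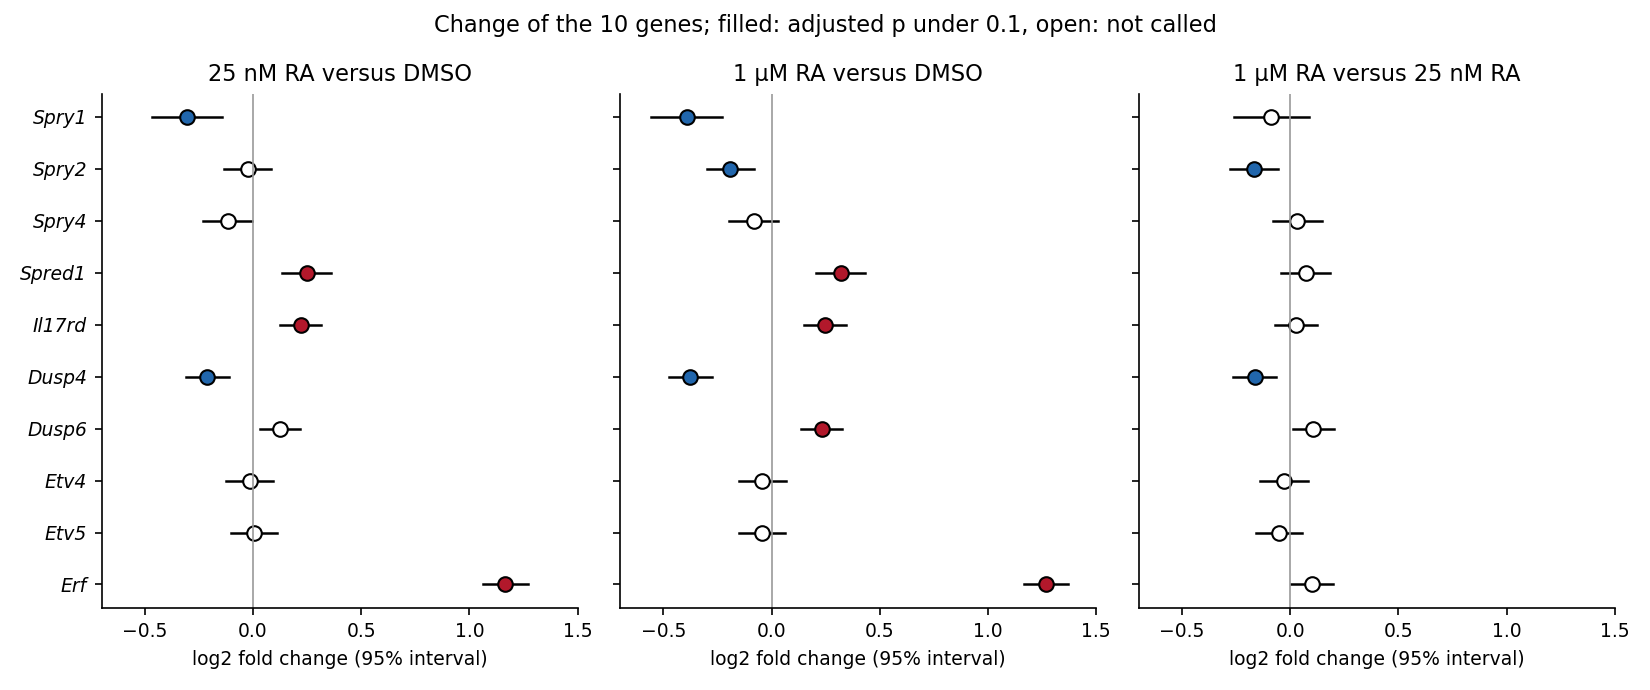
Log2 fold change (horizontal axis) of the 10 genes in 3 comparisons, with 95% intervals from the standard error of the fit. Filled points have an adjusted p under 0.1 in edgeR's likelihood ratio test (red higher, blue lower) and open points do not. *Erf* stands apart at 1.17 and 1.27, while the other called values against DMSO lie between -0.39 and 0.32.

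DUSP4 and DUSP6 are dual-specificity phosphatases that inactivate ERK, DUSP4 in the nucleus and DUSP6 in the cytoplasm. *Dusp6* (chr10:99263231-99267490, plus strand, mm10) had the highest RPKM of the 10 genes in every sample and *Dusp4* (chr8:34807610-34819895, plus strand, mm10) the second highest with DMSO. *Dusp4* was at 42.0 and 42.8 RPKM with DMSO, at 37.7 and 35.8 RPKM with 25 nM RA and at 32.3 and 33.3 RPKM with 1 µM RA. The conditions did not overlap, and each dose was below the one before it. The log2 fold change of *Dusp4* was -0.21 (SE 0.05, adjusted p = 0.00078 in edgeR's test) at 25 nM and -0.38 (SE 0.05, adjusted p = 4.66e-12) at 1 µM. Without the second sample with 25 nM RA, the call at 25 nM was lost (adjusted p = 0.101). *Dusp6* was at 83.4 and 79.9 RPKM with DMSO, at 90.5 and 88.2 RPKM with 25 nM RA and at 96.8 and 96.0 RPKM with 1 µM RA, again without overlap and in the opposite direction. Its log2 fold change of 0.23 (SE 0.05, adjusted p = 3.06e-05) at 1 µM was called. Its value of 0.12 (SE 0.05) at 25 nM had an adjusted p of 0.112 in the likelihood ratio test and of 0.0900 in edgeR's quasi-likelihood test, which called it. The summed RPKM of *Dusp4* and *Dusp6* was 125 and 123 with DMSO, 128 and 124 with 25 nM RA, and 129 in both samples with 1 µM RA. The ratio of *Dusp6* to *Dusp4*, also chosen after the values were seen, went from 1.99 and 1.87 with DMSO to 2.99 and 2.88 with 1 µM RA.

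Sprouty and SPRED proteins block the step from the receptor to RAS and RAF, and *Il17rd* encodes Sef, a membrane protein that binds FGF receptors and holds ERK in the cytoplasm. *Spry1* (chr3:37639947-37644600, plus strand, mm10) had the lowest RPKM of the 10 genes in every sample. It was at 4.73 and 4.56 RPKM with DMSO, at 3.77 and 3.82 RPKM with 25 nM RA and at 3.58 and 3.63 RPKM with 1 µM RA. All RA-treated samples were below both DMSO samples. The log2 fold change of *Spry1* was -0.31 (SE 0.08, adjusted p = 0.00563 in edgeR's test) at 25 nM and -0.39 (SE 0.08, adjusted p = 5.26e-05) at 1 µM. At 25 nM it was not called by DESeq2 (adjusted p = 0.264), nor without the first DMSO sample (0.116) or without the first sample with 25 nM RA (0.107). The counts behind it were between 321 and 543 per sample. They were split by the authors' estimation among 4 transcripts of the same locus, and the share of the most variable one, NM_001305441, ran from 22.8% to 69.7% between samples. None of the 4 was called by itself, with standard errors of 0.52 to 1.11 on the log2 scale, so that the call is that of their sum. In the GENCODE annotation an unclassified gene on the opposite strand, *Gm42922*, overlaps the first bases of *Spry1*. The kit was stranded, but whether strand was used in counting is not given in the sources used here.

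*Spry2* (chr14:105891947-105896820, minus strand, mm10) was at 19.3 and 20.0 RPKM with DMSO, at 19.4 and 19.3 RPKM with 25 nM RA and at 17.3 and 17.2 RPKM with 1 µM RA. Only the samples with the high dose lay below the DMSO samples. The log2 fold change of *Spry2* was -0.03 (95% interval -0.13 to 0.08) at 25 nM and -0.19 (SE 0.06, adjusted p = 0.00562 in edgeR's test) at 1 µM. Without the second DMSO sample the call at 1 µM was lost (adjusted p = 0.165). *Spry4* (chr18:38586265-38601269, minus strand, mm10) was at 8.49 and 8.71 RPKM with DMSO, at 8.27 and 7.66 RPKM with 25 nM RA and at 8.26 and 8.04 RPKM with 1 µM RA. It was called at neither dose, with log2 fold changes of -0.12 (-0.23 to -0.00) and -0.08 (-0.20 to 0.03). The RA-treated samples were all below both DMSO samples. In GENCODE 2 small RNA genes of the opposite strand lie within *Spry4*.

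*Spred1* (chr2:117121071-117182278, plus strand, mm10) was at 34.2 and 32.4 RPKM with DMSO, at 39.8 and 39.4 RPKM with 25 nM RA and at 43.7 and 39.4 RPKM with 1 µM RA. It was the second highest of the 10 genes with RA and ranked 4 with DMSO. *Spred1* rose by a log2 fold change of 0.25 (SE 0.06, adjusted p = 0.000605 in edgeR's test) at 25 nM and 0.32 (SE 0.06, adjusted p = 9.90e-07) at 1 µM. Of its 2 transcripts, NM_033524 took 98.9% to 99.2% of the counts and was called at both doses by itself. *Il17rd* (chr14:27039001-27107287, plus strand, mm10) was at 16.1 and 15.8 RPKM with DMSO, at 18.5 and 18.8 RPKM with 25 nM RA and at 18.6 and 19.5 RPKM with 1 µM RA. It rose by a log2 fold change of 0.22 (SE 0.05, adjusted p = 0.000304) at 25 nM and 0.25 (SE 0.05, adjusted p = 1.16e-05) at 1 µM. For both genes all RA-treated samples lay above both DMSO samples, and the calls held under all 19 alternatives at each dose. Membrane inhibitors therefore moved both ways, with *Spry1* lower and *Spred1* and *Il17rd* higher at both doses. Summed over the 5 of them, RPKM was 82.8 and 81.4 with DMSO, 89.7 and 89.0 with 25 nM RA and then 91.4 and 87.8 with 1 µM RA.

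**Figure D3:**
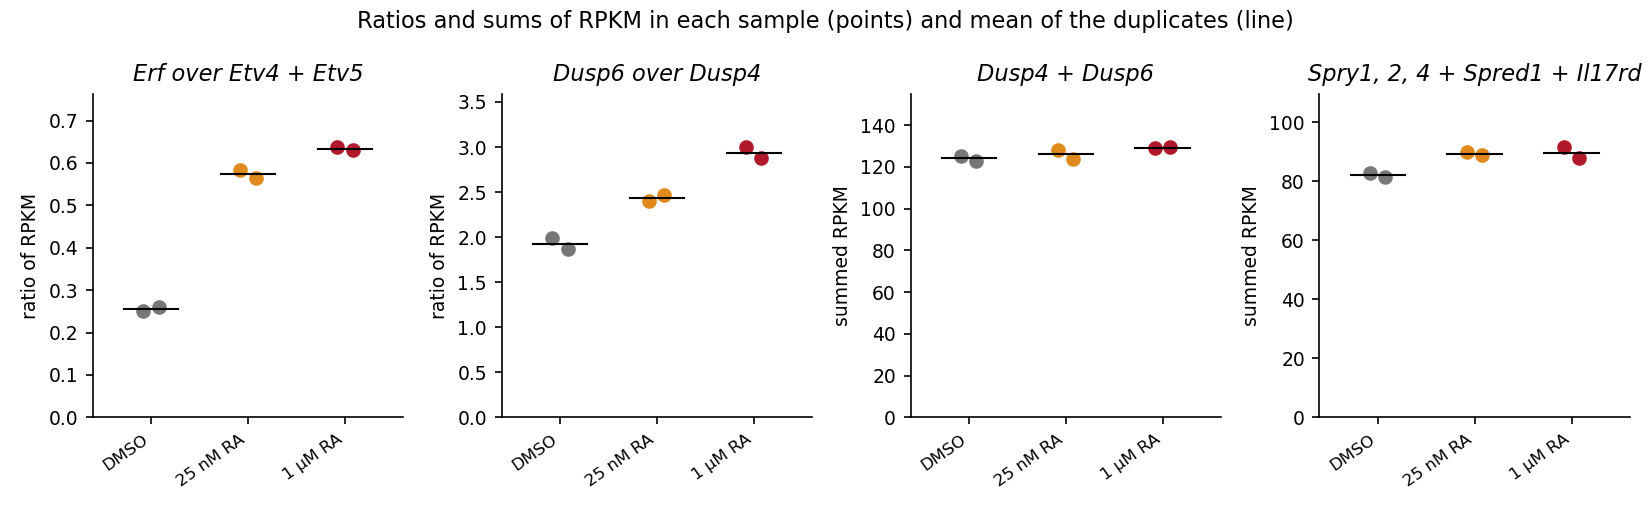
Ratios and sums of RPKM (vertical axes, from 0) per sample for the DMSO, 25 nM RA and 1 µM RA conditions. Points are samples and lines are means of the duplicates. The ratio of *Erf* to its activator relatives went from about 0.255 to 0.574 and 0.633, and that of *Dusp6* to *Dusp4* from 1.93 to 2.43 and 2.94, while the summed RPKM of the 2 phosphatases stayed between 123 and 129.

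In the order of RPKM with DMSO, *Dusp6* came first, followed by *Dusp4*, *Etv5*, *Spred1*, *Etv4*, *Spry2*, *Erf*, *Il17rd*, *Spry4* and *Spry1*. The duplicates of *Etv5* and *Spred1* overlapped, as did those of *Erf* and *Il17rd*, and the other neighbors did not. With 1 µM RA the ranks were 3 for *Erf*, 4 for *Etv5*, 5 for *Dusp4*, 7 for *Il17rd* and 8 for *Spry2*.

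The doses were also compared directly. *Dusp4* and *Spry2* were called lower with 1 µM than with 25 nM RA and none of the 10 genes was called higher, against 3.41% of all genes tested (0.792% higher and 2.62% lower). The log2 fold change was -0.16 (SE 0.05) for *Dusp4*, with an adjusted p of 0.0520 in edgeR's likelihood ratio test. It was -0.17 (SE 0.06) for *Spry2*, with an adjusted p of 0.0884. Both calls depended on the test. The quasi-likelihood test of edgeR gave an adjusted p of 0.0769 for *Dusp4* and 0.121 for *Spry2*, and DESeq2 one of 0.139 and 0.389. The *Dusp4* call held under 10 of 19 alternatives and the *Spry2* call under 3. Leaving out any of the 6 samples ended the call of *Spry2*, and leaving out either sample with 25 nM RA or the first with 1 µM RA that of *Dusp4*. The other 8 genes had log2 fold changes between -0.09 and 0.11. Among them *Dusp6* (0.11, 95% interval 0.01 to 0.20) and *Erf* (0.10) had an unadjusted p under 0.05 but were not called.

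The genes whose 6 samples most resembled those of the 3 genes with the largest called changes were found by the root-mean-square difference of log2 CPM relative to the DMSO mean of each gene. For *Erf* they were *Wnt8a* (0.055 on the log2 scale), *Chsy1* (0.066) and *Ppap2b* (0.073). For *Spry1* they were *Hs3st3b1* (0.021), *Lrig3* (0.027) and *Vcan* (0.030). For *Dusp4* they were *Arhgef17* (0.014), *Pacs1* (0.025) and *Fam46b* (0.026). *Wnt8a* had log2 fold changes of 1.22 and 1.26 at the low and the high dose. That these lie near those of *Erf* follows from how *Wnt8a* was picked. The paper names *Wnt8a* among the genes that RA represses in the NMP niche of embryos, the opposite direction.

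The rest of the FGF-ERK pathway was examined with lists of genes by their role. For comparison with each list, 8.05% of all genes tested were called at 25 nM, 19.7% at 1 µM and 3.41% between the doses. At the top of the pathway, 12 FGF ligands and receptors were tested. At 25 nM RA 5 of them were higher and 2 lower, and at 1 µM RA 6 were higher and 3 lower. *Fgf15*, which encodes a ligand of the endocrine FGF subfamily, went from 7.76 and 7.78 RPKM with DMSO to 22.1 and 21.7 RPKM at the low dose, then to 33.4 and 33.3 RPKM at the high dose. *Fgf4*, a ligand of the primitive streak, went from 4.31 ± 0.15 RPKM (SD, n = 2) to 12.2 ± 0.24 RPKM and then to 17.9 ± 0.15 RPKM. These are log2 fold changes of 1.49 and 2.09 for *Fgf15* and of 1.49 and 2.05 for *Fgf4*. *Fgfr2*, which encodes an FGF receptor, had values of 0.72 and 0.80 from a level of 1.16 RPKM with DMSO. At 1 µM compared with 25 nM, 3 of the 12 were called, and *Fgf15*, *Fgf4* and *Fgf3* were all higher. The 2 ligands with the highest RPKM of the list, named after their values were seen, fell at both doses. *Fgf8* had 58.3 ± 1.5 RPKM (SD, n = 2) with DMSO and log2 fold changes of -0.22 and -0.26, and *Fgf5* had 48.8 ± 0.77 RPKM and log2 fold changes of -0.37 and -0.44. Without the first sample with 25 nM RA the call of *Fgf3* between the doses was lost (adjusted p = 0.263 in edgeR's test). The median log2 fold change of the list was 0.26 at 25 nM and 0.28 at 1 µM, beside medians of -0.000510 and 0.00128 over all genes tested.

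Among adaptors and kinases the share called was near the 8.05% at 25 nM and the 19.7% at 1 µM of all genes tested. Of 22 adaptors and kinases from FRS2 to ERK and its substrates, 1 was higher and 1 lower at 25 nM, and 1 was higher and 3 lower at 1 µM. The adaptor gene *Frs2* had log2 fold changes of -0.26 and -0.43 and the kinase gene *Rps6ka3* of 0.33 and 0.37 at the low and high dose. *Sos1*, which encodes an exchange factor that activates RAS, was called at 1 µM (-0.26) but not at 25 nM (-0.17, adjusted p = 0.118 in edgeR's test). Without the first DMSO sample the call of *Rps6ka3* was lost at both doses, leaving 1 call of the list at 25 nM and 2 at 1 µM. Its call at 25 nM was also lost without the second sample with 25 nM RA, and that of *Frs2* at 25 nM was lost without the second DMSO sample or the first with 25 nM RA. The median log2 fold change was -0.02 at 25 nM and -0.03 at 1 µM. Neither edgeR test called any of the 22 genes when the doses were compared.

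Of 14 further inhibitors tested, 4 were higher and 2 lower at 25 nM and 3 were higher and 6 lower at 1 µM. The phosphatase gene *Dusp5* went from 8.51 and 7.39 RPKM with DMSO to 17.3 and 16.7 RPKM with 25 nM RA and to 17.5 and 19.7 RPKM with 1 µM RA (log2 fold changes 1.08 and 1.22). *Dusp9*, which encodes another ERK phosphatase, went from 21.2 RPKM in both DMSO samples to 33.9 and 31.2 RPKM and then to 36.6 and 39.6 RPKM (0.61 and 0.84). *Spred2* had log2 fold changes of 0.46 and 0.38. Its relative *Spred3*, named after its values were seen, was not called at 25 nM (-0.16) and was lower at 1 µM (-0.34, adjusted p = 0.000294 in edgeR's test). *Cbl*, which encodes a ubiquitin ligase that turns over receptors, had values of -0.25 and -0.63. The median log2 fold change of the list was -0.06 at 25 nM and -0.03 at 1 µM. Between the doses *Dusp9* was higher (0.23) and *Cbl* (-0.38) and the RAS inhibitor gene *Nf1* (-0.17) were lower at 1 µM, but the call of *Nf1* held under only 2 of 19 alternatives and was lost in the quasi-likelihood test (adjusted p = 0.131). Without the first sample with 25 nM RA, 3 of the 14 were called higher and 0 lower at 25 nM. Without the second, 0 were called between the doses. *Cbl* at 25 nM was also lost without the second DMSO sample.

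In the list of other ETS factors and *Cic*, 14 genes were tested, of which 1 was lower at 25 nM, and 1 was higher and 4 lower at 1 µM. *Elk3* had a log2 fold change of -0.33 at 25 nM and -0.37 at 1 µM. At 1 µM *Etv2* was higher (0.62) and *Etv6* (-0.27) and *Etv1* (-0.26) were lower. *Cic*, which encodes the repressor Capicua, and *Etv2* were called between the doses (-0.18 and 0.41), with adjusted p-values of 0.0909 and 0.0957 in the likelihood ratio test and 0.132 and 0.178 in the quasi-likelihood test. The median log2 fold change of this list was -0.05 at both doses. The single call at 25 nM became 0 to 3 calls under other settings, and that of *Elk3* was lost without the first DMSO sample or without either sample with 25 nM RA. Without the first or the second sample with 25 nM RA, 0 of the 14 were called between the doses.

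Of 11 further genes that respond to ERK, 2 were higher and 3 lower at 25 nM and 3 were higher and 3 lower at 1 µM. The early response gene *Egr1* was low with DMSO (0.965 ± 0.092 RPKM, SD, n = 2) and lower with 25 nM RA (0.663 ± 0.052 RPKM) and with 1 µM RA (0.510 ± 0.022 RPKM). Its log2 fold changes were -0.54 and -0.93. *Egr3* had values of -0.78 and -1.30, from 0.456 and 0.556 RPKM with DMSO, and *Egr2* one of -0.95 at 1 µM. With the transcript of the highest count *Egr3* had a value of 0.0375 at 25 nM and was called at neither dose, and its call at 25 nM was also lost without the second DMSO sample or the first with 25 nM RA. In contrast *Junb* (0.28 and 0.24) and *Ier2* (0.23 and 0.19), which are early response genes too, were higher at both doses. Without the first DMSO sample the calls of *Ier2* at both doses, of *Junb* at 1 µM and of *Egr1* at 25 nM were lost, that of *Junb* also without the second sample with 1 µM RA and that of *Egr1* also without the first with 25 nM RA. The median log2 fold change of the list was -0.10 and -0.08. Without the first DMSO sample, or without the first sample with 25 nM RA, 2 of the 11 were called at 25 nM in place of 5. Neither edgeR test called any of the 11 when the doses were compared.

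**Figure D4:**
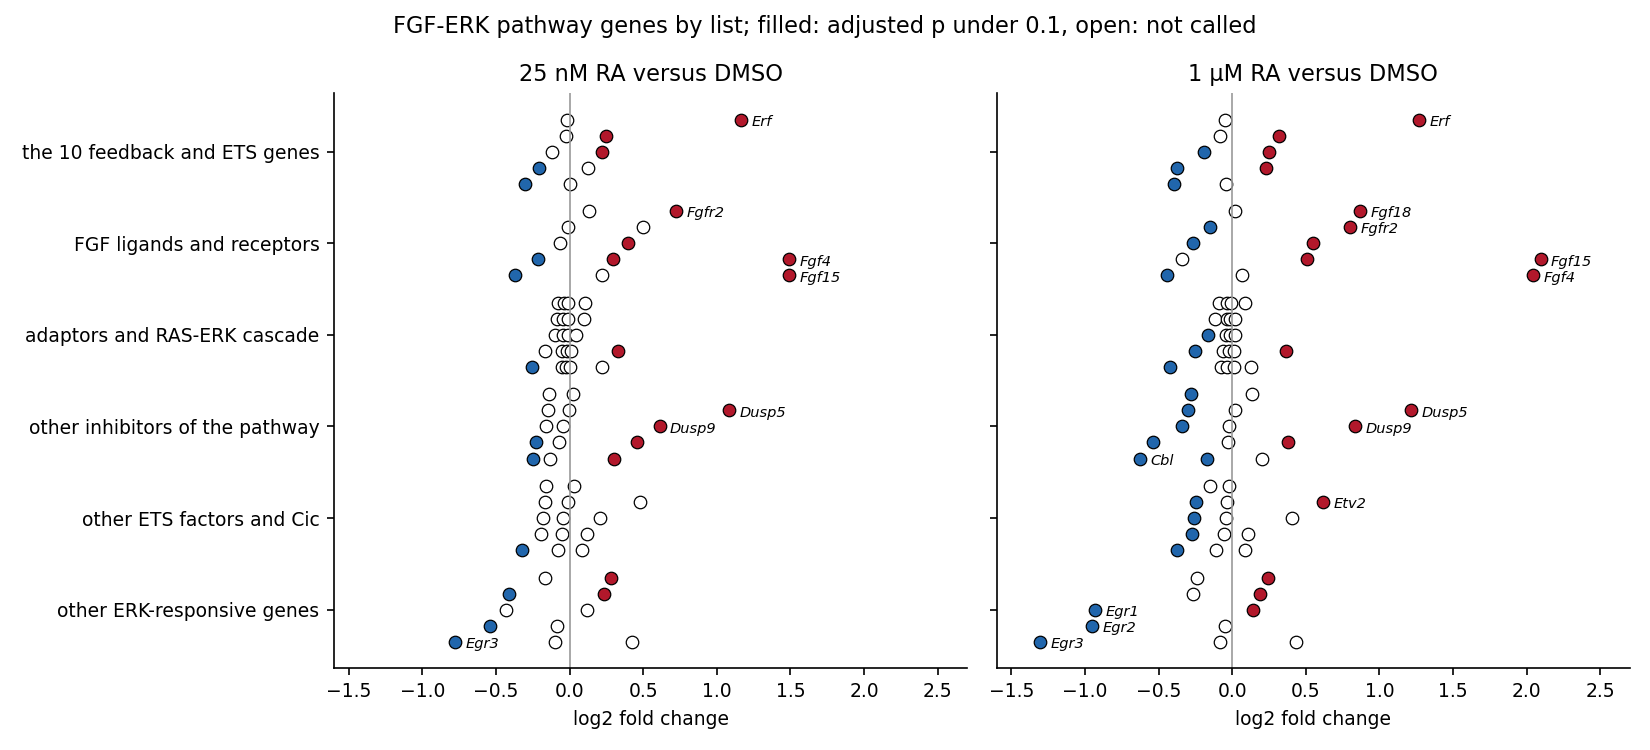
Log2 fold change (horizontal axis) of each tested gene of 6 lists at 25 nM and 1 µM RA, spread vertically within a list for legibility. Filled points have an adjusted p under 0.1 in edgeR's likelihood ratio test, and names are given for called genes with an absolute value above 0.6. *Fgf15* and *Fgf4* lie farthest to the right at up to 2.09, *Egr3* farthest to the left at -1.30, and most of the 22 adaptors and kinases lie near 0.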

How the data were processed

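RNA-seq was performed on 6 samples of NMPs, 2 per condition, grouped by their labels. Per the methods and the labels, the authors made stranded, ribosomal RNA-depleted libraries, sequenced single-end 50 bp reads, aligned them to mm10 with TopHat (TopHat2 2.0.13 and Bowtie2 2.2.5.0 in the submitters' processing notes, which also name FastQC 0.11 and Partek 6.6) and used expectation-maximization to estimate how abundant each transcript was. These estimated counts were deposited by the authors without normalization, and the RPKM values were scaled by the authors for transcript length and reads. RPKM implied totals of 38466126 to 51499056 reads.

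Counts were summed per gene, rounded and fitted in edgeR 4.0.16 (R 4.3.3) with TMM, filterByExpr and the likelihood ratio test, with 1 coefficient per condition, over all 6 samples. Errors are standard errors of the fit, and 95% intervals use them. With 2 samples per condition no permutation can reach a small p. The duplicates differed by more than sampling noise (mean chi-square per gene 3.19 to 4.76). Alternatives used limma 3.58.1 (log2(RPKM + 0.1) and + 1) and DESeq2 1.42.0. The tests were run on counts simulated from edgeR's own fit, with changes larger than most of those reported here. Such a run cannot check the tests at smaller changes, or whether the fit describes these dishes. Tables and figures were made in Python 3.11.15 (pandas 2.3.3, numpy 2.4.6, matplotlib 3.10.9, scipy 1.17.1).

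The 10 genes and all lists were chosen with earlier results of these data known. Named genes are all 10, *Cyp26a1* and *Rarb* for the RA response, cell type markers, the 3 called genes with the smallest adjusted p of each pathway list and comparison, and the 3 genes most like each of *Erf*, *Spry1* and *Dusp4*. Of the lists, 14 of 15 further inhibitors, 14 of 15 ETS genes and 11 of 12 ERK-responsive genes could be tested. Gene spans are as in the files. Protein sequences were not used here.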

Additional observations from a re-analysis of the deposited data

Results flagged for a closer look

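With 2 samples per condition no sample could be judged as far from the others. The results listed here are those named genes and cell type markers whose change differed between the doses in the direct contrast of edgeR's likelihood ratio test. Among the 10 genes these were *Dusp4* (log2 fold change -0.16, 1 µM relative to 25 nM RA) and *Spry2* (-0.17), both lost under several other settings. Of the other pathway genes, *Fgf15* (0.60), *Fgf4* (0.56), *Fgf3* (0.26), *Dusp9* (0.23) and *Etv2* (0.41) were higher at 1 µM, while *Cbl* (-0.38), *Nf1* (-0.17) and *Cic* (-0.18) were lower. *Cyp26a1* (0.64) and *Rarb* (0.36), used as the check of the RA response, were higher at 1 µM as well. Among the cell type markers *Msgn1* (-0.40) of mesoderm, *Sox17* (-0.40) of endoderm and *Col1a1* (-0.48) and *Col3a1* (-0.50) of fibroblasts were lower at 1 µM. Of these results, those of *Spry2*, *Nf1*, *Cic*, *Etv2*, *Col1a1* and *Col3a1* were not called by the quasi-likelihood test. The calls of *Nf1*, *Cic* and *Etv2* held under 2, 4 and 7 of 19 alternatives. Without the second sample with 25 nM RA the calls of *Dusp9*, *Cbl* and *Rarb* were lost, and without the first that of *Fgf3*.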

How the results depend on the processing

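Against DMSO the number of the 10 genes called stayed between 4 and 6 at 25 nM RA and between 6 and 7 at 1 µM RA when any sample was left out. Between the doses it was 2, and fell to 1 with edgeR's quasi-likelihood test, with no filter on low counts, with only the 4 samples compared or with the replicate block. It was 0 with DESeq2, an adjusted p under 0.05, the transcript with the highest count, limma on log2(RPKM + 0.1) or on log2(RPKM + 1), and the quasi-likelihood test with the replicate block (an alternative chosen after seeing the data), and between 0 and 1 without any one sample. Of all genes, 1219, 2983 and 516 were called at 25 nM, at 1 µM and between the doses. DESeq2 called 567, 1594 and 158, the transcript with the highest count gave 508, 1253 and 184 calls, and limma called 696 at 25 nM and 10 between the doses. Between the doses the quasi-likelihood test called 336, an adjusted p under 0.05 gave 340, and the quasi-likelihood test with the block 311. Leaving out a sample gave 799 to 1345, 1922 to 2838 and 205 to 577 calls. The cause of these differences was not tested. Same-numbered samples showed no large shared deviation over all genes (correlations -0.0440, 0.0487 and -0.0593). These values cannot tell whether the dishes were handled in numbered pairs. With the block 5, 7 and 1 of the 10 genes and 1138, 2756 and 423 of all genes were called. Signs turned for values near 0 that were not called. *Etv5* at 25 nM was -0.00243 with total counts. Without a sample, the log2 fold change at 25 nM ranged from -0.0586 to 0.00896 for *Spry2*, from -0.0539 to 0.0262 for *Etv4* and from -0.0529 to 0.0708 for *Etv5*. At 1 µM it ranged from -0.101 to 0.0111 for *Etv4* and from -0.104 to 0.0191 for *Etv5*. Between the doses it ranged from -0.0140 to 0.0786 for *Spry4*, from -0.0200 to 0.155 for *Spred1* and from -0.0861 to 0.0249 for *Etv4*. *Egr3*, called at 25 nM, was 0.0375 and not called with the transcript of the highest count. Counts of the 5 pathway lists moved by over 1.5 times in 25 of 90 list and setting pairs at 25 nM, in 4 of 90 at 1 µM and in 19 of 90 between the doses. RPKM on TMM-scaled library sizes moved by at most 0.282%, within the SD for 29 of 30 levels, the exception being *Etv4* with DMSO. The depth of *Spry1*, 321 to 543 counts per sample, limits its precision most among the 10 genes.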
